A study of Mus musculus with 9 samples.

Results

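The 6 miRNAs described here are mmu-miR-199a-3p, mmu-miR-199a-5p, mmu-miR-199b-5p and mmu-miR-214-3p, from hairpins of the miR-199 and miR-214 families, and mmu-miR-143-3p and mmu-miR-145a-5p, which are made together from 1 cluster (mmu marks the mouse and is left out below where no confusion arises). They were taken by name from the probe annotation of the arrays, which carry 1881 mouse miRNAs, of which 446 were detected on at least 1 array. All 6 were on the array, each with 2 probes printed as 30 spots in all. Of the 6, miR-214-3p was detected on 8 of the 9 arrays, miR-199a-3p on 6, miR-199a-5p on 5 and miR-199b-5p on 1, and neither miR-143-3p nor miR-145a-5p was detected on any.

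The arrays were 9 one-colour mouse miRNA arrays hybridised with Cy3-labelled RNA. The RNA came from osteoblastic cells, which had been raised from bone marrow of 8-week-old male C57BL/6 mice. The marrow was kept in culture for 7 days and for another 7 days in a medium with β-glycerophosphate, ascorbic acid 2-phosphate and dexamethasone. The study asked how miRNA levels respond to alpha particles given at a high dose rate, and its groups were 0 Gy, 0.5 Gy and 1 Gy, each with 3 arrays. The 0.5 and 1 Gy groups were irradiated at 0.22 Gy per minute, and the 0 Gy group was not irradiated. All groups shared strain, sex, age and culture, and differed in dose alone as far as the labels say. How long after irradiation the RNA was taken was not stated in the labels. A culture raised from marrow can hold several cell types, and a lower signal in such a bulk sample does not separate fewer cells of a type from less RNA per cell. Whether the 3 arrays of a dose stand for 3 animals or 3 cultures is not given in the labels. Every p-value here therefore sets a difference only against the scatter of these samples, and that scatter may be technical. Arrays are named below by their dose and the replicate number of their title.

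A miRNA is cut from a stem-loop precursor, the hairpin, whose arms give a 5p and a 3p product. The mature strand guides a silencing complex to messenger RNAs, mainly by pairing of its seed, the bases 2 to 8 from the 5′ end. miR-199a and miR-214 are made from a shared non-coding transcript that runs antisense inside a dynamin gene, and they are known as miRNAs of mesenchymal cells. miR-214 has been described as a restraint on osteoblast activity and bone formation. miR-143 and miR-145 are made together from another transcript and are best known from smooth muscle cells and fibroblasts.

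The mature sequences of the 3 miRNAs whose levels are described most fully are shown first, because probes bind these strands and the seed sets which targets they can pair with. They come from RefSeq on GRCm38.p6, are written 5′ to 3′ and have the seed in capitals.
miR-214-3p: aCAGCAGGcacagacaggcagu
miR-199a-3p: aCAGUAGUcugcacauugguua
miR-199a-5p: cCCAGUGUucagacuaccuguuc
The 3 seeds differ from each other. Of the 1608 miRNAs on the array with a RefSeq sequence, none shared the seed of miR-199a-3p. miR-199b-5p is not among these 1608, so sharing of the miR-199a-5p seed was not examined. The seed of miR-214-3p was shared by 1 other miRNA, miR-761, which was not detected on any array. miR-199b-3p has the same 22 bases as miR-199a-3p and no probe of its own on the array, so the signal listed as miR-199a-3p can come from either.

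The 2 hairpins of the shared transcript are shown because they place miR-199a and miR-214 side by side in the genome. Their mature products are in capitals.
Mir199a-2: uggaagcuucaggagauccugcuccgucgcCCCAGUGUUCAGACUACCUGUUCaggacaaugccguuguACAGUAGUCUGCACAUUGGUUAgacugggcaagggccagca
Mir214: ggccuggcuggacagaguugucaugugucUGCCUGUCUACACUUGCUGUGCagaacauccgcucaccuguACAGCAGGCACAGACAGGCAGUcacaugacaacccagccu
Mir199a-2 lies at chr1:162217814-162217923 and Mir214 at chr1:162223368-162223477, both on the plus strand of GRCm38.p6, with 5444 bases between them. Both lie within Dnm3, a dynamin gene, and within the long non-coding RNA gene Dnm3os. A second hairpin, Mir199a-1, gives the same miR-199a products and lies within Dnm2, on the minus strand at chr9:21496495-21496564. Mir199b lies within Dnm1, on the plus strand at chr2:32318460-32318569. The array signal of miR-199a-3p or miR-199a-5p does not separate these sources.

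Array quality bears on every value of the 6 miRNAs. The additive error, the scanner software's estimate of the noise of a dark spot, was 19.4 intensity units on 0.5 Gy number 1 and 11.2 on 1 Gy number 1, against 1.60 to 2.83 on the other 7 arrays. On 0 Gy number 1, miR-494-3p alone took 53.0% of the unscaled signal summed over all miRNAs on the array, against 1.70% to 6.57% on the others. All arrays numbered 1 thus stand apart, and group means, mean positions, correlations and dose differences are given with and without them. The number of detected miRNAs ran from 144 to 234 per array, and 28 miRNAs were detected on all 9.

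mmu-miR-214-3p was the brightest of the 6 miRNAs on every array that detected any of them. Its level, as log2 of scaled intensity, was 5.13, 6.89 and 8.58 on arrays 1, 2 and 3 of 0 Gy. At 0.5 Gy it was 6.52, 8.35 and 8.47, the first of these not detected, and at 1 Gy it was 7.63, 7.93 and 8.36. The array numbered 1 was the lowest of its dose in all 3 doses, and the groups overlapped. The group means were 6.87 ± 1.72 at 0 Gy, 7.78 ± 1.09 at 0.5 Gy and 7.97 ± 0.37 at 1 Gy (SD, n = 3 each). Without the arrays numbered 1 they were 7.73 ± 1.19, 8.41 ± 0.087 and 8.15 ± 0.30 (SD, n = 2 each). The spread was widest without irradiation, where the lowest and highest of all 9 arrays both lay.

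mmu-miR-199a-3p, the neighbour of miR-214 in the shared transcript, followed with a lower signal. At 0 Gy it was at the floor of 3.52 and not detected on array 1, and read 4.64 and 7.00 on arrays 2 and 3. The floor, the 1st percentile of detected values, stands for any lower value, so values at it have no order. At 0.5 Gy it read 3.76 on array 1, not detected, then 7.02 and 6.82. At 1 Gy it read 4.50 on array 1, not detected, then 6.75 and 6.81. The 3 arrays numbered 1 were thus the 3 on which it was not detected, and 5 of the other 6 lay between 6.75 and 7.02. The exception was 0 Gy number 2. Group means were 5.05 ± 1.77, 5.87 ± 1.83 and 6.02 ± 1.32 at 0, 0.5 and 1 Gy (SD, n = 3 each), and the groups overlapped. Without the arrays numbered 1 the means were 5.82 ± 1.67, 6.92 ± 0.15 and 6.78 ± 0.046 (SD, n = 2 each).

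mmu-miR-199a-5p, cut from the opposite arm of the same hairpins, was dimmer again. It was detected on 0 Gy number 3 at 4.72, and was at the floor and not detected on the other two 0 Gy arrays. The detected values at 0.5 Gy were 4.64 and 4.48 on arrays 2 and 3, and at 1 Gy they were 4.59 and 4.54. The 5 detected values thus lay between 4.48 and 4.72. Higher readings of 6.28 on 0.5 Gy number 1 and 5.08 on 1 Gy number 1 came from the noisiest arrays and were not detected. With them included the group means were 3.92 ± 0.69, 5.13 ± 1.00 and 4.74 ± 0.30 at 0, 0.5 and 1 Gy (SD, n = 3 each), and the groups overlapped. Without the arrays numbered 1 the means were 4.12 ± 0.85, 4.56 ± 0.11 and 4.57 ± 0.040 (SD, n = 2 each).

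mmu-miR-199b-5p, from the hairpin within Dnm1, was detected on 1 Gy number 2 alone, where its level was at the floor. There 93.3% of the spots of its brighter probe were well above background. On the other 8 arrays the share was between 0% and 40%. The mean intensity of that probe was 3.29, 2.74 and 7.23 on arrays 1, 2 and 3 of 0 Gy. It was 36.1, 8.42 and 6.92 at 0.5 Gy, and 17.2, 10.9 and 10.4 at 1 Gy. The 2 highest readings, on 0.5 Gy number 1 and 1 Gy number 1, had no spot well above background. No fold between doses is given for it, since it had no level above the floor on an array that detected it.

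**Figure D1:**
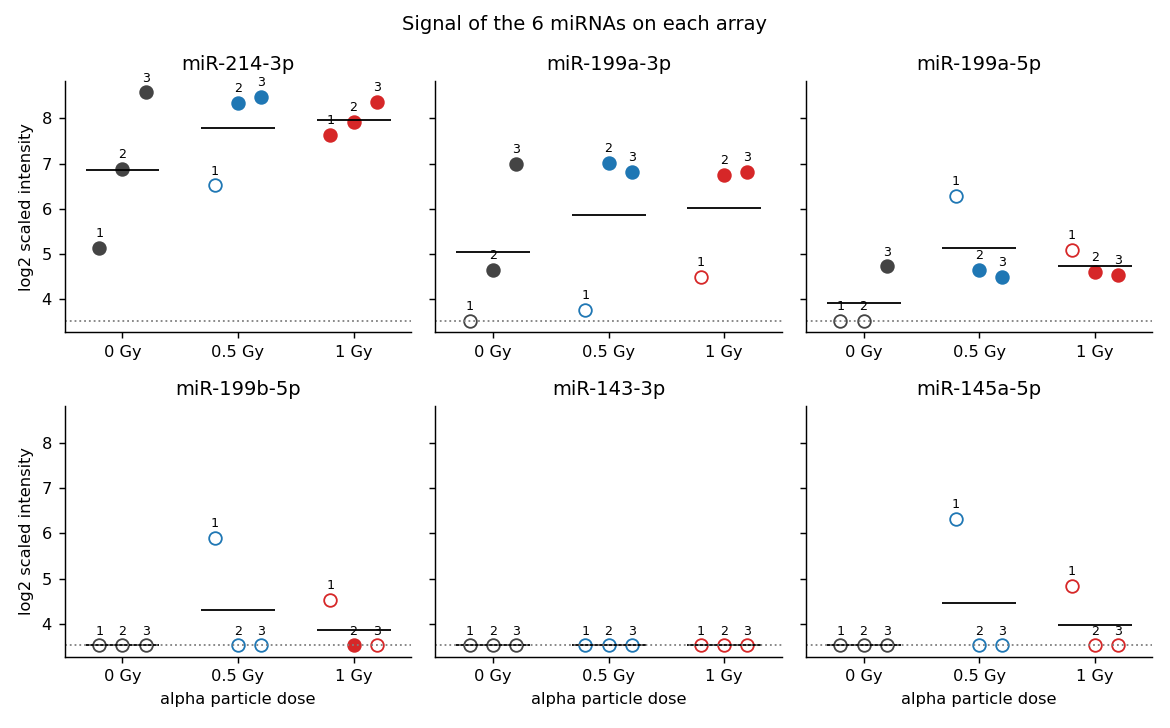
Log2 scaled intensity (y axis) of each of the 6 miRNAs on the 9 arrays, by alpha particle dose (x axis). Points are arrays with their replicate number, filled where the miRNA was detected and open where it was not; lines are group means over all 3 arrays and the dotted line is the floor of 3.52. miR-214-3p lies between 5.13 and 8.58, miR-199a-3p reaches 7.02, and miR-143-3p stays at the floor on all 9 arrays.

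mmu-miR-143-3p and mmu-miR-145a-5p, the main products of their hairpins, were not well above background on any array. No spot of either probe of miR-143-3p passed that mark, its probe means lay between -7.08 and 1.67 intensity units, and its level was at the floor on all 9 arrays. miR-145a-5p was at the floor on 7 arrays. It read 6.33 on 0.5 Gy number 1 and 4.84 on 1 Gy number 1, neither detected, with probe means of 35.3 and 32.9 on the first and 12.9 and 10.4 on the second. These are the arrays with additive errors of 19.4 and 11.2, and on the other 7 arrays its probe means lay between -0.060 and 4.70. The part of array noise in those 2 readings was not tested.

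The scanner software also gives a weaker mark, for spots that are positive and significant against the background. By that mark, asked of at least 50% of a probe's spots, miR-145a-5p was positive on 8 arrays and miR-143-3p on 0. miR-199a-5p, miR-199b-5p and miR-214-3p were positive on all 9 arrays by it and miR-199a-3p on 7. Between 478 and 771 of the 1881 miRNAs carried the weaker mark on an array. A signal near background for miR-145a-5p was thus present on most arrays, and one for miR-143-3p was not detectable on any. The other strands of these hairpins stayed below the stronger mark too. miR-214-5p, miR-143-5p, miR-145a-3p and the related miR-145b were each detected on 0 arrays, and carried the weaker mark on 1, 1, 2 and 0 arrays.

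The 2 probes of miR-214-3p ordered the arrays alike, apart from the noisiest array and the 2 brightest, which lay close together. The intensity of the brighter probe before scaling was 50.8, 80.2 and 263 on arrays 1, 2 and 3 of 0 Gy. It was 69.1, 200.3 and 241 at 0.5 Gy, and 126, 187 and 262 at 1 Gy. The dimmer probe read 16.8, 28.0 and 90.4 without irradiation. With 0.5 Gy it read 8.66, 75.8 and 84.5, and with 1 Gy 35.8, 72.6 and 91.0. On the 8 arrays that detected the miRNA, the brighter probe was 2.58 to 3.52 times the dimmer one.

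The probes of miR-199a-3p also moved together. Its brighter probe read 2.71, 15.2 and 75.8 without irradiation, then 9.23, 70.0 and 67.1 with 0.5 Gy, and 13.7, 71.8 and 77.1 with 1 Gy. On the 6 arrays that detected it, the ratio of brighter to dimmer probe lay between 1.69 and 2.03. The dimmer probe of miR-199a-5p was never well above background, so the level of that miRNA rests on 1 probe. That brighter probe read 22.6 on 0 Gy number 3, and 16.9, 18.7, 21.4 and 23.0 on arrays 2 and 3 of 0.5 and 1 Gy, against 5.91 and 5.96 on 0 Gy numbers 1 and 2.

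**Figure D2:**
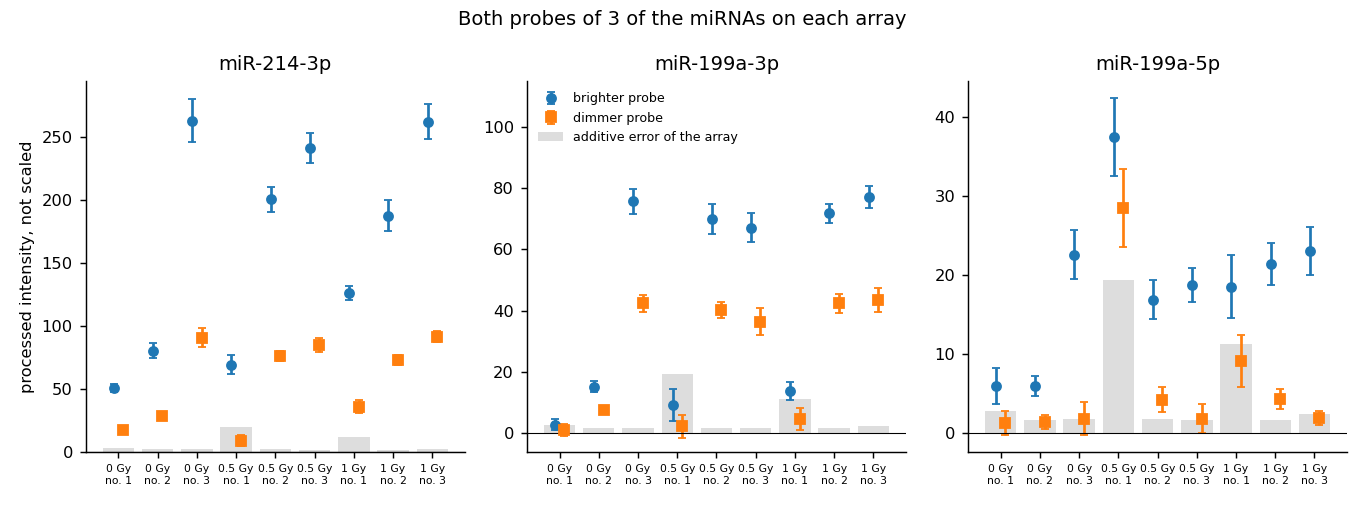
Processed intensity before scaling (y axis) of both probes of miR-214-3p, miR-199a-3p and miR-199a-5p on each array (x axis). Points are means over a probe's spots, bars the SD over spots, and grey columns the array's additive error. For miR-199a-3p the additive error of 19.4 on 0.5 Gy number 1 exceeds both probes, while on the arrays numbered 3 both probes lie far above it.

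The spots of a probe varied little within an array. Over the arrays that detected miR-214-3p, the coefficient of variation of its brighter probe's spots was 4.37% to 7.27%, with a median of 5.83%. The array means of that probe ranged 5.17-fold, from 50.8 to 263. For miR-199a-3p the spots varied by 4.40% to 11.9%, and the array means by 5.06-fold, from 15.2 to 77.1. These array means are of different samples and doses and were not yet scaled. The number of arrays, 3 per dose, limits the precision of a dose comparison.

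Set among all detected miRNAs of the same array, miR-214-3p ranked high on most arrays. A rank here is an order of signal, which depends on each probe's brightness and is no order of molecule number. At 0 Gy it ranked 110 of 234, 40 of 157 and 19 of 185 on arrays 1, 2 and 3. At 0.5 Gy it ranked 22 of 173 and 19 of 195 on arrays 2 and 3, and at 1 Gy 64 of 144, 28 of 223 and 19 of 178. On all 3 arrays numbered 3 it was thus the 19th brightest, whatever the dose. It made up 0.0296%, 0.414% and 1.22% of the detected signal at 0 Gy. At 0.5 Gy the shares were 0.988% and 1.14%, and those at 1 Gy were 0.450%, 0.509% and 0.964%. The lowest share, on 0 Gy number 1, stands beside the 53.0% that miR-494-3p took there. That 53.0% is of the signal of all miRNAs, detected or not, so the 2 shares have different bases.

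miR-199a-3p ranked 41 to 51 on the 5 arrays where it lay near its highest level, and 119 of 157 on 0 Gy number 2. Those ranks were 42 of 185 on 0 Gy number 3, 41 of 173 and 43 of 195 at 0.5 Gy, and 51 of 223 and 41 of 178 at 1 Gy. miR-199a-5p stood in the lower part of the detected miRNAs, at ranks 128 of 185, 140 of 173, 146 of 195, 161 of 223 and 147 of 178. miR-199b-5p was 219th of 223 on its only array. The order within the group, miR-214-3p, then miR-199a-3p, then miR-199a-5p, was the same on all 5 arrays that detected all 3.

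**Figure D3:**
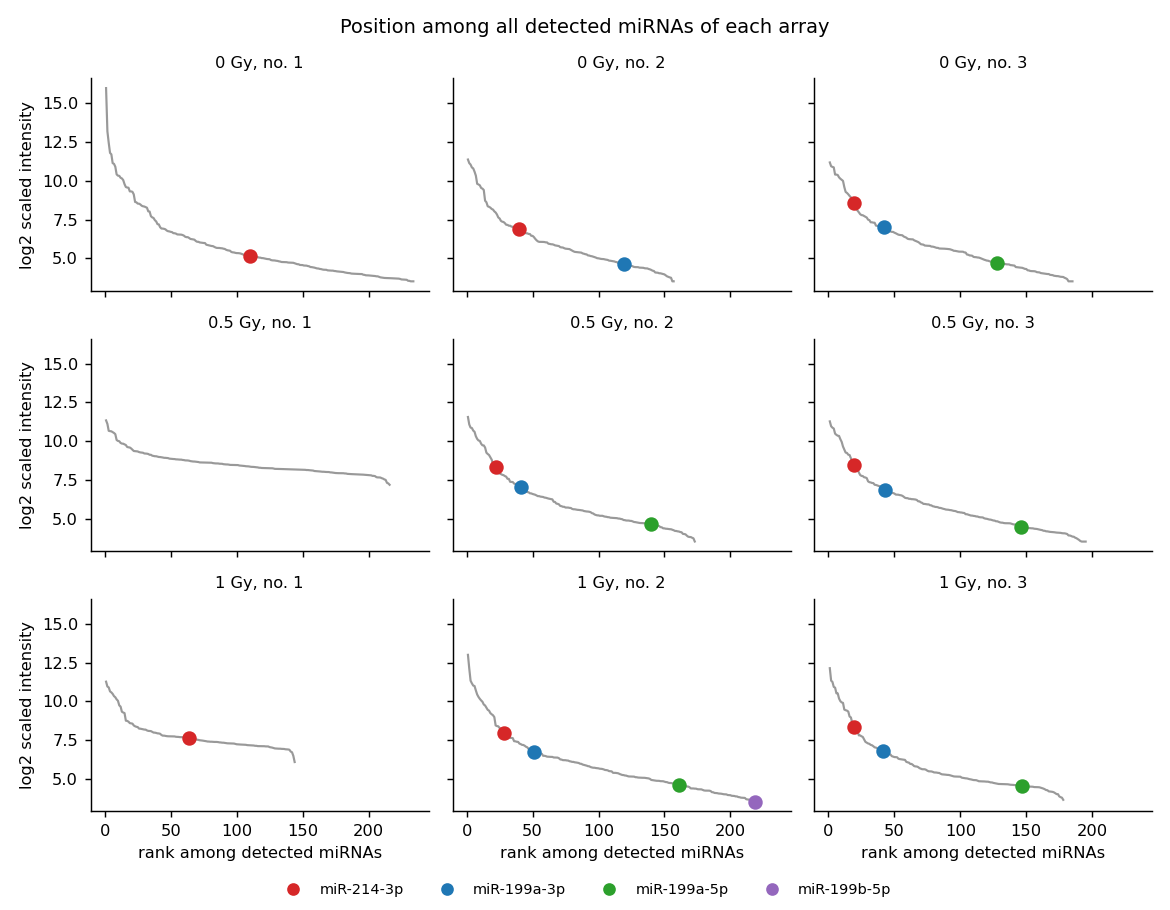
Log2 scaled intensity (y axis) of all detected miRNAs of each array in order of signal (grey line, rank on the x axis), with the detected miR-199 and miR-214 products as coloured points. miR-214-3p is 19th on each array numbered 3, and 110th on 0 Gy number 1; no point is drawn on 0.5 Gy number 1, where none of the group was detected.

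By mean over all 9 arrays, miR-214-3p was 27th of the 134 miRNAs tested, with 7.54 ± 1.16 (SD, n = 9). Its neighbours in that order were miR-6937-5p with 7.61 ± 0.38 and miR-7036a-5p with 7.43 ± 0.74 (SD, n = 9 each). They were picked for having the closest means. The means of the 134 had a median of 5.49 and quartiles of 4.74 and 7.18. miR-214-3p therefore lay above the upper quartile, with a wider spread than either neighbour. Without the arrays numbered 1 it was 21st of the same 134, with 8.10 ± 0.63 (SD, n = 6).

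Between doses, miR-214-3p did not pass the test in any comparison. It was the only one of the 6 that could be tested, since a miRNA entered the test where every array of some dose had detected it. For miR-214-3p both 0 Gy and 1 Gy met that filter. None of the 134 miRNAs was called in any of the 3 comparisons, a background of 0%, by limma with Benjamini-Hochberg adjusted p under 0.05. At an unadjusted p under that limit there were 2, 4 and 0 miRNAs for 0.5 Gy against 0 Gy, 1 Gy against 0 Gy and 1 Gy against 0.5 Gy. miR-214-3p was not among these.

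At 0.5 Gy, miR-214-3p was 0.91 above 0 Gy on the log2 scale, with a standard error of 0.85 and a 95% interval of -0.998 to 2.82. The adjusted p from limma was 0.561 and the exact permutation p, 2-sided, was 0.7. At 1 Gy it was 1.11 above 0 Gy (SE 0.85, interval -0.80 to 3.02), with an adjusted p from limma of 0.539 and an exact permutation p of 0.4. Between 1 Gy and 0.5 Gy the difference was 0.20 (SE 0.85, interval -1.72 to 2.11), with an adjusted p from limma of 0.999 and an exact permutation p of 0.9. With 3 arrays against 3, the exact permutation test cannot give a p below 0.1. The first 2 comparisons share the 0 Gy arrays, and none of the intervals excludes a difference in either direction. The median difference of all 134 miRNAs was -0.47 and -0.49 in the comparisons with 0 Gy, where miR-214-3p lay above 0, and -0.035 between the irradiated doses. Without number 1 of every dose, where 180 miRNAs could be tested and 0 were called, those medians were 0.078, 0.075 and -0.092. Of the 134, 40 passed the filter on the 0.5 and 1 Gy arrays. The rest entered the test through 0 Gy alone, so the filter partly sets the medians of -0.47 and -0.49.

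The size of both differences from 0 Gy moved with single arrays and with the scaling. Without 0 Gy number 1 the difference of miR-214-3p was 0.046 at 0.5 Gy and 0.24 at 1 Gy. Without 0 Gy number 3 it was 1.77 at 0.5 Gy (unadjusted p from limma 0.048, adjusted 0.405) and 1.96 at 1 Gy (unadjusted 0.032, adjusted 0.379). Among the irradiated arrays, the 0.5 Gy difference was 1.54 without 0.5 Gy number 1, which did not detect the miRNA, and 0.57 without 0.5 Gy number 3. Scaling on all probes in place of the detected ones took the differences to 0.021 at 0.5 Gy and -0.13 at 1 Gy, and quantile normalization to -0.14 and 0.58. With no scaling between arrays they were 0.48 and 0.84. The percentile that arrays were scaled to was 1462 on 0 Gy number 1, against 618 to 815 on the others. Without number 1 of every dose the differences were 0.68 and 0.41, and -0.26 for 1 Gy against 0.5 Gy. The slide of an array was inferred from the scan date in its file header, arrays of the same date being taken to share a slide. On that basis 0 Gy number 2 was alone on its slide. Within the slide that holds numbers 1 and 3 of every dose the differences were 0.64, 1.14 and 0.50, and with the slide as a block 0.79, 0.99 and 0.20. On the slide that holds number 2 of both irradiated doses, miR-214-3p was lower at 1 Gy, by a difference of -0.42 between 2 arrays, with no test.

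By the correlation of their deviations, the replicate numbers were taken to pair the arrays of 0.5 and 1 Gy. A fit of those arrays alone with the replicate number as a block called 3 of 40 miRNAs between 1 and 0.5 Gy. There miR-214-3p differed by 0.20 with an adjusted p from limma of 0.964. The pairing was read from these same data, and those correlations mainly set number 1 apart. The 3 calls thus rest on a pairing that is assumed.

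**Figure D4:**
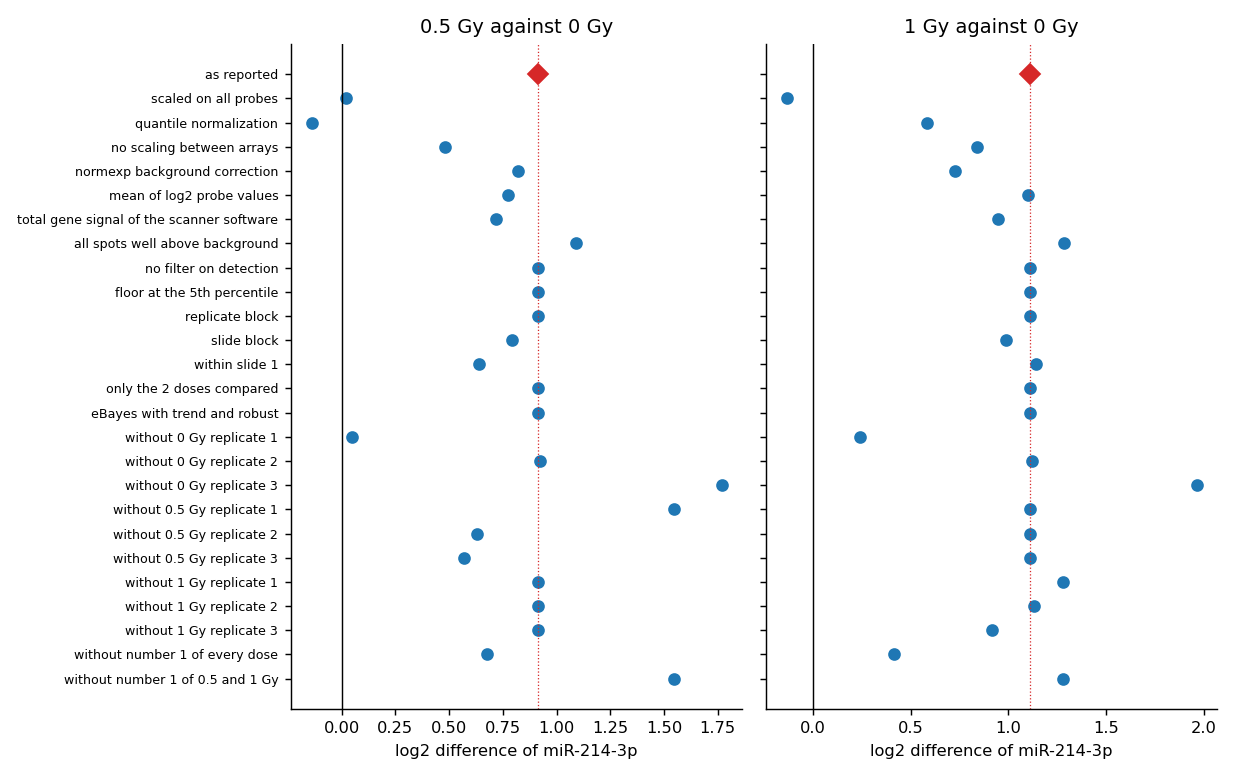
Log2 difference of miR-214-3p from 0 Gy (x axis) at 0.5 Gy and at 1 Gy under each processing alternative and each left-out array (rows); the diamond is the reported value. Leaving out 0 Gy number 1 brings the differences to 0.046 and 0.24, and leaving out 0 Gy number 3 raises them to 1.77 and 1.96.

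For miR-199a-3p and miR-199a-5p the differences are descriptions, since neither was detected on all arrays of a dose. miR-199a-3p lay 0.82 above 0 Gy at 0.5 Gy and 0.97 above it at 1 Gy, with 0.15 between 1 and 0.5 Gy. Without 0 Gy number 1 these were 0.051 and 0.20 against 0 Gy, without 0 Gy number 3 they were 1.79 and 1.94, and without number 1 of every dose they were 1.103, 0.96 and -0.14. With the slide as a block the differences of miR-199a-3p from 0 Gy were 0.14 and 0.29, and within the slide of numbers 1 and 3 they were 0.033 and 0.40. The log2 values of miR-199a-5p lay 1.22 and 0.82 above 0 Gy, and -0.40 between 1 and 0.5 Gy. Since 2 of its 3 values at 0 Gy are the floor, these are no measured folds. Quantile normalization gave 0.24 and 0.18, the software's total gene signal 0.35 and 0.29, and scaling on all probes 0.54 and 0.12, at 0.5 and 1 Gy against 0 Gy. Without number 1 of every dose, which removes the 2 noisiest arrays, its differences were 0.44, 0.45 and 0.004. On the slide with number 2 of both irradiated doses, miR-199a-3p differed by -0.28 and miR-199a-5p by -0.045 from 0.5 to 1 Gy.

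The 2 neighbours of the shared transcript kept a similar ratio on most of the 6 arrays that detected both. Where both were detected, the summed intensity of miR-214-3p over that of miR-199a-3p was 4.76 and 2.99 on arrays 2 and 3 of 0 Gy. It was 2.51 and 3.14 on arrays 2 and 3 of 0.5 Gy, and 2.27 and 2.93 on those of 1 Gy. The ratio was highest on 0 Gy number 2, where miR-199a-3p was lower than on the other 5. No ratio is given for the arrays numbered 1, where miR-199a-3p was not detected. For the 2 arms of miR-199a, the 3p over 5p ratio lay between 4.45 and 5.23 on the 5 arrays that detected both. Those 5 leave out 0 Gy number 2, and on them miR-214-3p over miR-199a-3p lay between 2.27 and 3.14. Probes differ in brightness, so these ratios compare arrays and are no ratio of molecules.

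**Figure D5:**
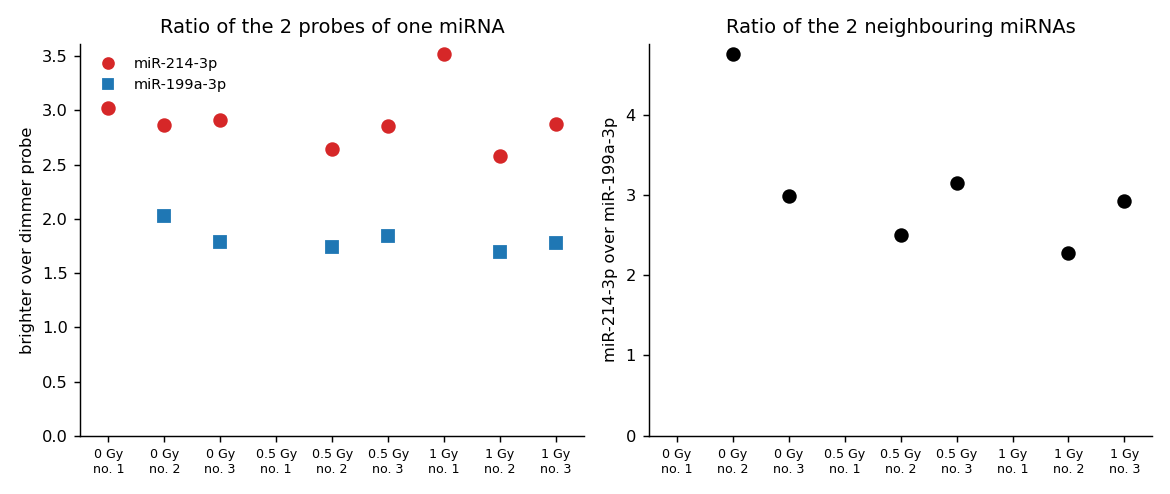
Ratio of the brighter to the dimmer probe of miR-214-3p and of miR-199a-3p (left), and ratio of the summed intensity of miR-214-3p to that of miR-199a-3p (right), on each array (x axis). Points are drawn for arrays that detected the miRNA (left) or both miRNAs (right); those on the right lie between 2.27 and 4.76.

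Among the other 133 miRNAs tested, those most like miR-214-3p across arrays were let-7a-5p, let-7c-5p, let-7b-5p, miR-125b-5p and miR-3102-5p. Their Pearson correlations with it over the 9 arrays were 0.968, 0.955, 0.929, 0.924 and 0.860, and the Spearman correlations 0.917, 0.967, 0.967, 0.883 and 0.917. All points of these correlations share the array, its scaling and the low values on the arrays numbered 1. Over the 6 arrays numbered 2 and 3 the Pearson correlations were 0.932, 0.969, 0.973, 0.938 and 0.941, and 2 of the 5, let-7c-5p and let-7b-5p, stayed among the closest 5. Under quantile normalization 2 of the 5 stayed among the closest 5.

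The osteoblastic label was set against miRNAs of cell types that a marrow culture could hold. Of 19 stromal miRNAs on the array, a list that includes the 6, 12 were detected on at least 1 array and 2 were tested, miR-214-3p and miR-125b-5p. Both were higher at each irradiated dose than at 0 Gy, neither was called, and their median differences were 1.24 and 1.33. Over all 134 tested miRNAs, 38 and 34 were higher in these comparisons. Most of the 134 entered the test through 0 Gy alone, so the filter partly sets that share. Without number 1 of every dose, 11 of the stromal miRNAs could be tested. All 11 were higher at 0.5 and at 1 Gy than at 0 Gy, none was called, and their medians were 0.85 and 0.96. There, 96 and 98 of all 180 tested were higher. A miRNA entered this test where every remaining array of some dose had detected it. It could thus enter through the irradiated doses alone, as miR-199a-5p did, so the filter partly sets this direction. The summed scaled level of the stromal list ran from 275 to 1676 at 0 Gy, 943 to 1591 at 0.5 Gy and 782 to 1546 at 1 Gy. Without the arrays numbered 1 these ranges were 510 to 1676, 1478 to 1591 and 1497 to 1546. The highest of these sums was thus on a 0 Gy array, and only the other 0 Gy array lay below the irradiated ones. Between 6 and 17 of the 19 were at the floor on an array, and 19 values at the floor would sum to 218. miR-143-3p and miR-145a-5p were among its 7 miRNAs that no array detected.

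Of 7 myeloid miRNAs, 2 were detected, miR-223-3p on 5 arrays and miR-342-3p on 4, and neither strand of miR-142a was. The sum over the list was 80.2 to 128, 101 to 188 and 112 to 116 at 0, 0.5 and 1 Gy. Without the arrays numbered 1 it was 101 to 118 at 0.5 Gy, and the other ranges were the same. Between 4 and 7 of the 7 were at the floor on an array, and a sum of 80.2 is that of 7 floor values, so most of these sums is the floor and not a measured level. Of 2 lymphoid miRNAs, miR-181a-5p was detected on all 9 arrays and miR-150-5p on none, with a summed level of 78.4 to 210, 176 to 364 and 155 to 283. Without the arrays numbered 1 these sums were 78.4 to 210, 176 to 215 and 155 to 216. The lists for erythroid cells and platelets (4 miRNAs), endothelium (2), muscle (4), epithelium (6), liver (1) and neurons (3) had no detected miRNA. The part of other cell types in the levels of the miR-199 and miR-214 products was not tested.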

How the data were processed

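The deposited scanner output gives, for every spot of an array, a processed intensity that Agilent Feature Extraction 11.5.1.1 had background-subtracted without any normalization across arrays, per the file headers. Further deposited columns used were 0 or 1 marks (a code, not a level) for spots above background, outlying or saturated. An array has 58594 spots, 56430 of them for 1881 miRNAs (4415 probes). A deposited series table with 9 value columns that match no sample title was not used here.

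Outlying spots (1358 to 1661 per array) were dropped, and none was saturated. A probe was the mean of its spots, and was detected where at least 50% of them were well above background; a miRNA was detected where 1 of its probes was. Arrays were scaled to the 75th percentile of the 45 probes detected on all 9. Scaled probes were summed per miRNA, raised to a floor of 11.5 (the 1st percentile of detected values) and taken to log2. The 134 miRNAs detected on all arrays of a dose were tested in limma 3.58.1 (R 4.3.3; lmFit and eBayes on all 9 arrays, 2-sided, Benjamini-Hochberg, 0.05), after a check on simulated data. Besides the 6, the other products of their hairpins and the marker lists, the named miRNAs were the 5 most correlated with miR-214-3p and its neighbours by mean level. The 6 miRNAs and the marker lists were chosen with earlier results of these data known.

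Deviations from group means correlated between same-numbered 0.5 and 1 Gy arrays (0.837, 0.749 and 0.587 for numbers 1, 2 and 3). They did not between a 0 Gy array and the irradiated arrays of the same number (-0.128 to 0.158). The numbers were thus taken to pair the irradiated doses. Irradiated arrays numbered 2 and 3 also correlated across numbers (0.578 and 0.547), and number 1 with the others at -0.821 to -0.657, so the pattern mainly sets number 1 apart. Alternatives changed the scaling, background correction, probe summary, detection rule, floor, blocks and arrays used.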

Additional observations from a re-analysis of the deposited data

How the results depend on the processing

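The difference of miR-214-3p from 0 Gy was positive under 24 of 25 alternatives at 0.5 Gy (-0.14 to 1.77, adjusted p from limma 0.361 to 0.990) and 24 of 25 at 1 Gy (-0.13 to 1.96, adjusted p 0.379 to 0.951). The exceptions were quantile normalization at 0.5 Gy (-0.14) and scaling on all probes at 1 Gy (-0.13), and that scaling gave 0.021 at 0.5 Gy. These counts, and the one for 1 against 0.5 Gy below, include alternatives that could not move the difference. Among them are the detection filter, the eBayes options, the replicate block and leaving out an array of a dose not compared. Those repeat the reported value and add nothing to the count. Leaving out 1 array at a time gave 0.046 to 1.77 and 0.24 to 1.96. Between 1 and 0.5 Gy it was positive under 21 of 26 (adjusted p 0.933 to 1). It was -0.16 scaled on all probes, -0.093 after normexp, -0.26 without number 1 of every dose, and -0.26 without number 1 of both irradiated doses, the last 2 chosen after seeing the data. Leaving out 1 array gave -0.44 to 0.54, the lowest without 0.5 Gy number 1. The cause was not tested. With the replicate number as a block over all 9 arrays, 0 of 134 miRNAs were called in each comparison (5, 7 and 0 at an unadjusted p under 0.05), and miR-214-3p had adjusted p of 0.450, 0.445 and 0.996 at 0.5 Gy against 0 Gy, 1 Gy against 0 Gy and 1 Gy against 0.5 Gy. The block on the irradiated arrays alone, added after seeing the data, called 3 of 40. The array count of miR-199b-5p was 0 when all spots had to pass and 5 by the software's own call. A filter on detection on all 9 arrays gave no value for miR-214-3p, which 0.5 Gy number 1 did not detect. Normexp ran on the median spot signal. Signal over background limits all values on 0.5 Gy number 1 and 1 Gy number 1.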
